A study of Saccharomyces cerevisiae with 6 samples.

Results

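The 37 nuclear genes described here encode the respiratory chain and ATP synthase of Saccharomyces cerevisiae. They comprise 3 NADH dehydrogenases, 4 subunits of complex II, 9 of complex III, 7 of complex IV and 14 of ATP synthase, and were chosen by name from 5475 gene rows. The oxygen-switched genes CYC1, CYC7, COX5A and COX5B were left out of the set. Transcripts were measured by sequencing near the 3′ end of polyadenylated RNA in 6 samples, all labelled as strain BY4741 and all grown in YPD, a rich glucose medium, at 30 °C to an optical density near 0.8. There were 2 samples of a bud27 deletion, 2 of wild type (WT) kept overnight in 50 ng/ml rapamycin and 2 of untreated WT. Bud27 is a protein of the prefoldin family, and rapamycin is a drug that blocks TOR complex 1, the kinase that ties growth to nutrients. The labels do not say whether the deletion is 1 clone or which part of BUD27 it removes. They also do not say that the 2 samples of a group were separate cultures, and the p-values below rest on a spread that may be purely technical.

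Budding yeast has no proton-pumping complex I. Instead, single-polypeptide NADH dehydrogenases pass electrons from NADH to ubiquinone, NDI1 on the matrix side of the inner mitochondrial membrane and NDE1 and NDE2 on the side that faces the cytosol. Complex II feeds electrons from succinate, complex III hands them to cytochrome c, and complex IV passes them to oxygen, while ATP synthase uses the proton gradient that complexes III and IV build. In glucose medium yeast mostly ferments, many of these genes are held low by glucose repression, and the Hap2/3/4/5 complex, which binds CCAAT boxes, is known to activate many of them.

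The CPM values imply library totals of 3212848 and 5088194 reads for the deletion, against 28774941 and 20841682 for rapamycin and 26899486 and 18153459 for WT. Of these totals, 31.2% and 27.7% lay outside all rows in the deletion, 21.9% and 21.9% after rapamycin, and 18.8% and 22.4% in WT. Levels are given as scaled CPM, the deposited counts per library size after rescaling by TMM factors, and differences are log2 fold changes of scaled CPM + 1. A gene was called when its limma adjusted p over all 5279 gene rows tested was below 0.05. No spike-in is used here, so levels are shares of a library, and fewer expressing cells cannot be told apart from less RNA per cell. On the deposited scale, without TMM, the median difference over all rows shifts by 0.40 for the deletion against WT, by 0.55 for rapamycin against WT and by -0.16 for the deletion against rapamycin. The BUD27 row held 6 and 9 reads in the deletion libraries, 326 and 234 after rapamycin, and 268 and 246 in WT. FRS2, a phenylalanyl-tRNA synthetase gene and the next annotated gene after BUD27 on chromosome VI, had 34.4 and 23.0 scaled CPM in the deletion, 126 and 117 after rapamycin, and 165 and 103 in WT. Its log2 fold change in the deletion against WT was -2.17, with an SE of 0.25 and an adjusted p = 0.00044. The deletion libraries held 5 and 8 reads of TRP1, a tryptophan synthesis gene that BY4741 carries intact, against 1320 and 813 after rapamycin and 738 and 626 in WT, which goes against their strain label. Whether these strain differences have a part in the results below was not tested. The 6 genes specific to mating type a had at least 20.2 scaled CPM in every library. Of the 4 alpha-specific genes, MF(ALPHA)1 and MF(ALPHA)2 had at most 0.832, while STE3 reached 7.32 and SAG1 23.5, both after rapamycin.

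Of the 37 genes, 36 had enough reads to be tested. The exception was ATP7, a stator subunit gene of ATP synthase, with 0 and 0 reads in the deletion, 2 and 2 after rapamycin, and 1 and 0 in WT. A count of 0 allows up to 3 reads, or 0.934 CPM in the shallowest deletion library, and how the authors assigned reads to this gene is not given in the sources used here. In 5 cases the gene shares its row with a neighbouring or overlapping feature, so that its own reads cannot be told apart: COX4 with YGL188C, COX6 with YHR050W-A, ATP2 with YJR120W, ATP14 with YLR294C, and QCR9 with YGR182C. QCR9 also has a row of its own, which held 0 and 0 reads in the deletion, 5 and 3 after rapamycin and 1 and 6 in WT, and the joined row was used for it.

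The set as a whole took a larger share of gene reads in both conditions than in WT. Its 37 genes held 0.715% and 0.782% of the gene reads in the deletion, 0.854% and 0.872% after rapamycin, and 0.369% and 0.394% in WT. On the TMM scale used below the difference was smaller: the set summed to 4135 and 5276 scaled CPM in the deletion, 5233 and 5329 after rapamycin, and 3609 and 3504 in WT. In the deletion, 16 of the 36 genes tested were called higher than WT and 3 lower. Over all gene rows of that comparison 47.2% were called, 21.7% higher and 25.5% lower. After rapamycin 26 were called higher than WT and 1 lower, where 45.9% of all rows were called, 24.4% higher and 21.5% lower. In the direct comparison 8 genes were higher in the deletion than after rapamycin and 12 lower, against 25.6% and 29.4% of all rows, or 55.1% called in either direction. On the deposited scale 29 genes were higher and 0 lower in the deletion than in WT, and 35 higher and 1 lower after rapamycin. That scale also moved the calls over all 5279 rows, to 2245 higher and 704 lower in the deletion. After rapamycin they became 2886 higher and 432 lower. Both deletion libraries lay above both WT libraries for 24 genes (35.5% of all rows) and below them for 4 (38.1% of all rows). The rapamycin libraries lay above WT for 31 genes (42.5% of all rows) and below for 1 (38% of all rows). The deletion libraries lay above the rapamycin libraries for 12 genes (38.2% of all rows) and below for 16 (40.3% of all rows). The median log2 fold change of the set was 0.50 in the deletion (all rows -0.02), 0.76 after rapamycin (all rows 0.05) and -0.15 between the deletion and rapamycin (all rows -0.01). Both comparisons with WT use the same 2 WT libraries, so their values are set side by side here and the difference between the conditions is taken from the direct comparison.

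The 2 deletion libraries differed for this set. Of the 36 genes, 30 had a higher level in deletion replicate 2 than in replicate 1, with a median difference of 0.30 on the log2 scale. Over the 4976 rows with at least 300 reads in all, 49.8% were higher in replicate 2 and the median was -0.0020. In the rapamycin libraries 17 of 36 were higher in replicate 2 (37.1% of those rows), and in the WT libraries 18 of 36 (46.3%). Without deletion replicate 1, the median log2 fold change of the set against WT was 0.76 (all rows 0.0016). Without deletion replicate 2 it was 0.24 (all rows -0.0068).

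**Figure D1:**
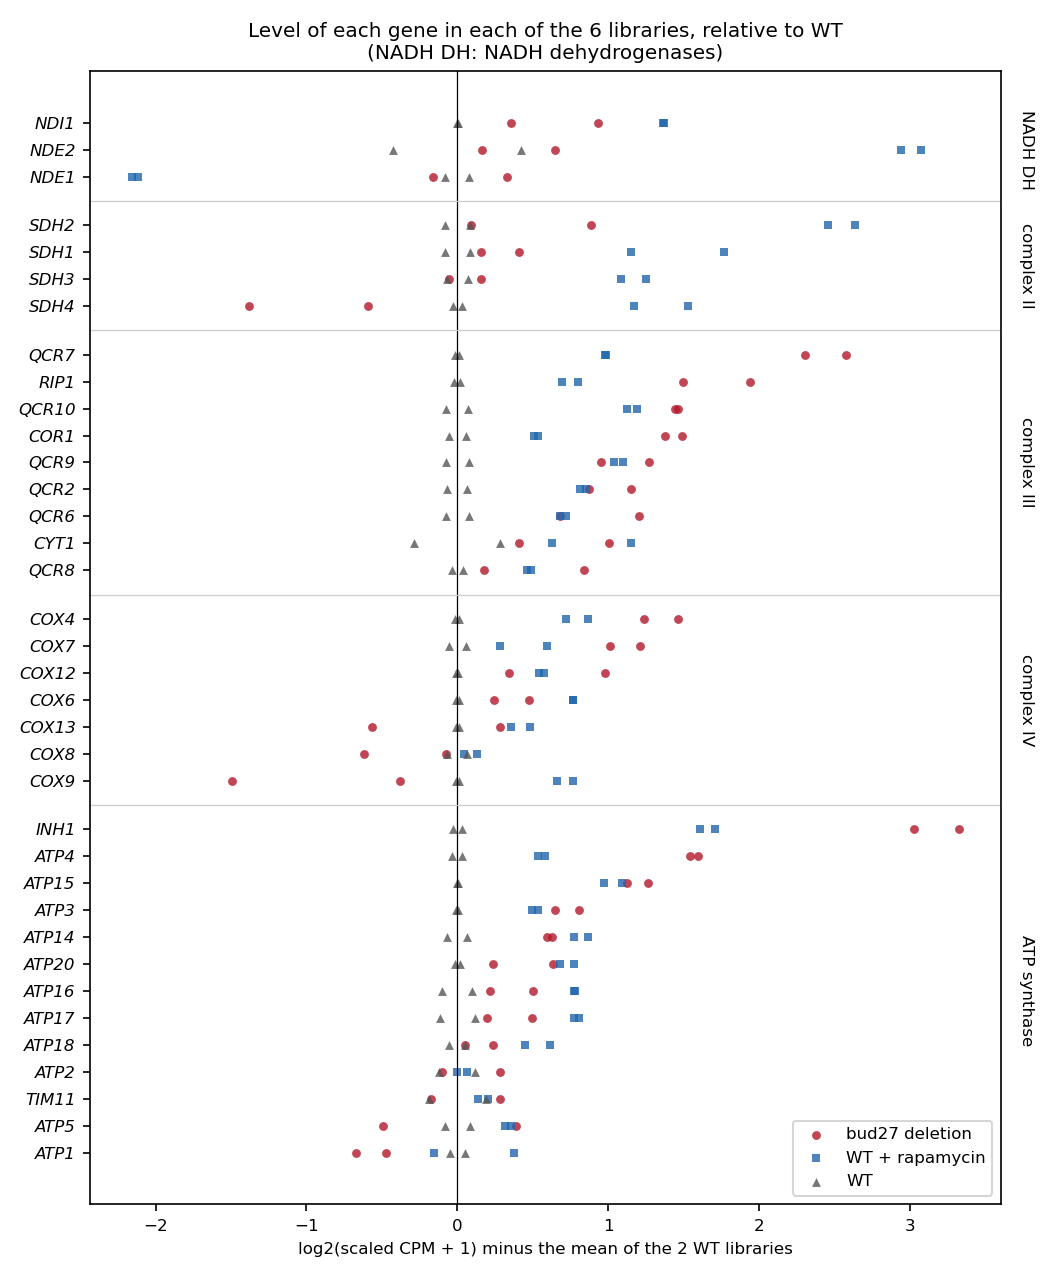
Level of each of the 36 genes tested in each library, as log2(scaled CPM + 1) minus the mean of the 2 WT libraries; circles are the bud27 deletion, squares WT with rapamycin and triangles WT. All 9 complex III genes lie above both WT libraries in both conditions, the 4 complex II genes stand apart after rapamycin, and NDE1 stands far below WT after rapamycin.

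The sequences before the start codons were searched for motifs that were chosen with earlier results of these data known. In the R64 genome, ACCAATNA, a form of the CCAAT box, occurred on either strand in the 500 bases before the start codon of 17 of the 37 genes (45.9%), against 516 of 6000 protein-coding genes (8.60%). Its core CCAAT, which every ACCAATNA match contains, occurred in 34 of 37, against 62.4% of all genes. The stress element AGGGG occurred in 18 of 37, against 34.1% of all genes, and the Reb1 motif TTACCCG in 7 of 37, against 10.1%. The Hap1 site occurred before 1 of the 37 genes, QCR6, against 0.350% of all genes. The windows below show the ACCAATNA match, in capitals, with 25 bases on each side, written 5′ to 3′ along the gene's own strand. They are shown for only some of the genes with a match. Those shown were all called higher than WT after rapamycin: the 3 complex III genes that hold a match, ATP4, COX12, NDI1 and SDH1.
QCR7, chrIV:1496698-1496755, minus strand: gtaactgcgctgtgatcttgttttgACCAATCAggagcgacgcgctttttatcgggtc
RIP1, chrV:106987-107044, plus strand: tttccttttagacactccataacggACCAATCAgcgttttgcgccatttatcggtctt
COR1, chrII:135835-135892, minus strand: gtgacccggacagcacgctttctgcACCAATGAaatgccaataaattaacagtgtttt
ATP4, chrXVI:408902-408959, minus strand: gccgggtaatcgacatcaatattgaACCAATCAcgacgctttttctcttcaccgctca
COX12, chrXII:225346-225403, minus strand: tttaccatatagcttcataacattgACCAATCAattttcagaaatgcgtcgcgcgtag
NDI1, chrXIII:30003-30060, minus strand: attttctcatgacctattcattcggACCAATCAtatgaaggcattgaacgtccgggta
SDH1, chrXI:171415-171472, minus strand: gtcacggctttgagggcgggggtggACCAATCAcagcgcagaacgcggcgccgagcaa
These matches start 182 bases before the start codon for QCR7, 248 for RIP1, 351 for COR1, 190 for ATP4, 206 for COX12, 228 for NDI1 and 318 for SDH1. NDE1, which was called lower after rapamycin, also holds matches, 103 and 10 bases before its start codon. COX8, COX13 and TIM11, which were called in no comparison, hold a match as well. Over all 18 matches in the 17 genes, 8 read ACCAATCA, 5 ACCAATTA, 4 ACCAATGA and 1 ACCAATAA. Called genes were found with and without a match. Of the 16 tested genes with a match, 9 were called higher in the deletion and none lower (median log2 fold change 0.63), and of the 20 without a match 7 were higher and 3 lower (median 0.46). After rapamycin 12 of the 16 were higher and 1 lower (median 0.65), and 14 of the 20 were higher and none lower (median 0.79). Between the deletion and rapamycin 5 of the 16 were higher and 4 lower, and 3 of the 20 were higher and 8 lower. Over all rows 21.7% were called higher and 25.5% lower in the deletion, and 24.4% and 21.5% after rapamycin. In the direct comparison 25.6% of all rows were called higher and 29.4% lower. A match is a description of the letters and not evidence of binding.

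Among the NADH dehydrogenases, rapamycin moved the external pair in opposite directions. NDE1 (YMR145C), on chromosome XIII at 554793 to 556475 on the minus strand, had 303 and 426 scaled CPM in the deletion, 75.2 and 77.6 after rapamycin, and 358 and 321 in WT. Both rapamycin libraries lay far below the other 4. NDE1 fell by 2.14 on the log2 scale after rapamycin against WT (SE 0.18, adjusted p = 7.6e-05), the lowest value of the set and the 30th lowest among the 5279 rows. Its log2 fold change in the deletion against WT was 0.08 (SE 0.18, adjusted p = 0.71), and the deletion was higher than rapamycin by 2.22 (SE 0.18, adjusted p = 4e-05).

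NDE2 (YDL085W), the paralog of NDE1 on chromosome IV at 303211 to 304848 on the plus strand, had 1.94 and 3.12 scaled CPM in the deletion, 21.1 and 19.1 after rapamycin, and 2.52 and 0.958 in WT. These values rested on 7 and 16 reads in the deletion, 724 and 478 after rapamycin, and 52 and 14 in WT. NDE2 rose by 3.0 after rapamycin (SE 0.30, adjusted p = 0.00017), the largest rise of the set in that comparison; with a pseudocount of 5 the value was 1.91. In the deletion its difference from WT was 0.41 (SE 0.30, adjusted p = 0.29), with overlapping libraries. NDI1 (YML120C), the internal enzyme, on chromosome XIII at 28266 to 29807, had 24.4 and 36.8 scaled CPM in the deletion, 50.4 and 50.1 after rapamycin, and 18.8 and 18.9 in WT. It rose by 1.37 after rapamycin (SE 0.19, adjusted p = 0.00083). In the deletion it rose by 0.64 (SE 0.19, adjusted p = 0.027), a call that was lost without either WT library (adjusted p = 0.12 each). Between the deletion and rapamycin NDI1 differed by -0.73 (SE 0.19, adjusted p = 0.014; 0.058 and 0.055 without either rapamycin library) and NDE2 by -2.60 (SE 0.30, adjusted p = 0.00025).

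**Figure D2:**
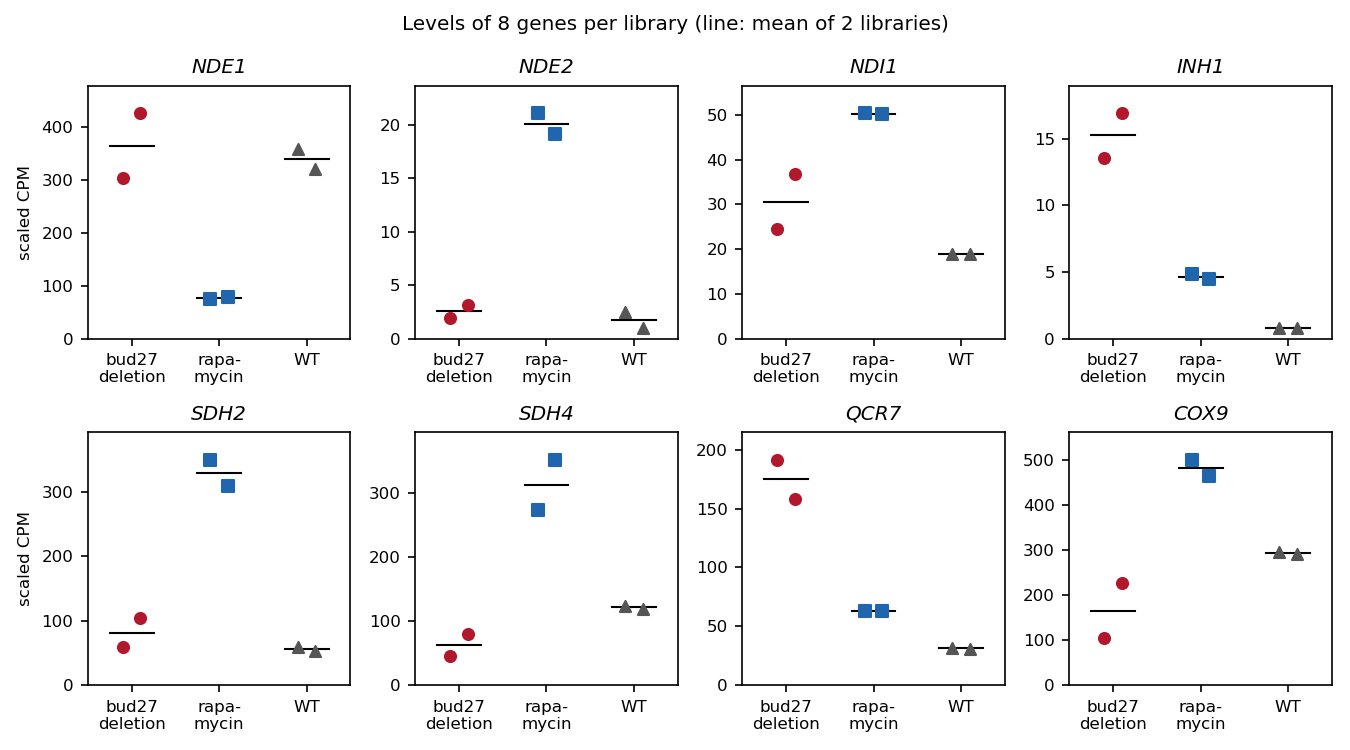
Scaled CPM per library of NDE1, NDE2, NDI1, INH1, SDH2, SDH4, QCR7 and COX9 in the bud27 deletion, WT with rapamycin and WT; each point is a library and the line is the mean of 2. NDE1 is lowest and NDE2 highest after rapamycin, while INH1 and QCR7 are highest in the deletion.

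Complex II, succinate dehydrogenase, which is also an enzyme of the tricarboxylic acid cycle, separated the conditions. All 4 of its genes rose after rapamycin, with log2 fold changes from 1.17 to 2.55, where 24.4% of all rows were called higher. In the deletion none rose and 1 fell, where 21.7% of all rows were called higher and 25.5% lower. On the deposited scale SDH1 (0.69, adjusted p = 0.024), SDH2 (0.92, adjusted p = 0.0052) and SDH3 (0.48, adjusted p = 0.01) were called higher in the deletion than in WT, and none lower. That scale also called 2245 of all 5279 rows higher and 704 lower, and moved the median over all rows to 0.38. The median of the complex moved to 0.59, against 0.17 with TMM. The iron-sulfur subunit gene SDH2 (YLL041C), on chromosome XII at 53131 to 53931, had 59.4 and 104 scaled CPM in the deletion, 351 and 310.0 after rapamycin, and 58.9 and 52.4 in WT. The rapamycin libraries stood well above the other 4, and 1 deletion library lay close to WT. SDH2 rose by 2.55 after rapamycin (SE 0.24, adjusted p = 0.00013), and had a log2 fold change of 0.49 in the deletion (SE 0.24, adjusted p = 0.12). Without deletion replicate 1 the deletion value was 0.93 and was called (adjusted p = 0.0025).

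SDH4 (YDR178W), a membrane anchor of the enzyme, had 46.0 and 80.2 scaled CPM in the deletion, 275 and 353 after rapamycin, and 124 and 119 in WT. Here the groups did not overlap, with the deletion lowest and rapamycin highest. SDH4 rose by 1.35 after rapamycin (SE 0.25, adjusted p = 0.0029) and fell by 0.99 in the deletion (SE 0.25, adjusted p = 0.013). The fall was not called on the deposited scale (log2 fold change -0.55, adjusted p = 0.054) or without WT replicate 1 (0.094) or WT replicate 2 (0.084).

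SDH3, the other membrane anchor, whose product also serves in the TIM22 protein import complex, had 97.4 and 113 scaled CPM in the deletion, 243 and 217 after rapamycin, and 106 and 96.6 in WT. The flavoprotein gene SDH1 had 17.5 and 21.0 in the deletion, 35.8 and 55.4 after rapamycin, and 16.6 and 14.6 in WT. Both stood higher in each rapamycin library than in any other, with rises of 1.17 for SDH3 (SE 0.14) and 1.46 for SDH1 (SE 0.22). In the direct comparison all 4 genes were lower in the deletion than after rapamycin, where 29.4% of all rows were called lower. The differences were -2.34 for SDH4 (SE 0.25, adjusted p = 0.00017), -2.06 for SDH2 (SE 0.24, adjusted p = 0.00026), -1.18 for SDH1 and -1.12 for SDH3. These 4 calls held under all 15 alternative settings.

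Complex III, the cytochrome bc1 complex, stood above WT in both conditions. In both deletion libraries all 9 of its genes were above both WT libraries, where 35.5% of all rows were, and 7 passed the test, with a median log2 fold change of 1.11. After rapamycin all 9 were again above both WT libraries, where 42.5% of all rows were, and 8 passed the test, with a median of 0.83. Over all rows 21.7% were called higher in the deletion and 24.4% after rapamycin. QCR7 (YDR529C), a small subunit that joins early in assembly, on chromosome IV at 1496165 to 1496548, had 192 and 159 scaled CPM in the deletion, 62.8 and 62.9 after rapamycin, and 31.7 and 31.0 in WT. The 3 groups were widely apart. QCR7 rose by 2.44 in the deletion (SE 0.14, adjusted p = 1.6e-05), the 46th highest of all rows, and by 0.98 after rapamycin (SE 0.14, adjusted p = 8e-04).

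RIP1 (YEL024W), which encodes the Rieske iron-sulfur protein, had 114 and 156 scaled CPM in the deletion, 65.2 and 70.1 after rapamycin, and 39.3 and 40.5 in WT. COR1 (YBL045C), a core subunit, had 155 and 168 in the deletion, 84.5 and 86.3 after rapamycin, and 56.8 and 61.5 in WT. In both genes each deletion library was above each rapamycin library, and these above WT. The rise in the deletion was 1.72 for RIP1 (SE 0.17, adjusted p = 0.00019) and 1.43 for COR1 (SE 0.12, adjusted p = 0.00011). QCR7, RIP1 and COR1 were also higher in the deletion than after rapamycin, by 1.46 (SE 0.14, adjusted p = 9.2e-05), 0.97 (SE 0.17, adjusted p = 0.0018) and 0.91 (SE 0.12, adjusted p = 0.00057). They were the only 3 of the 9 complex III genes called in that comparison, where 25.6% of all rows were called higher. This count is near that share and is no result about the complex. After rapamycin RIP1 rose by 0.75 and COR1 by 0.52, but RIP1 lost its call without either WT library (adjusted p = 0.059 and 0.05) and COR1 without either rapamycin library (0.066 and 0.076) or WT replicate 1 (0.068).

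QCR10, the largest rise of complex III after rapamycin, had 68.5 and 69.5 scaled CPM in the deletion, 57.3 and 54.7 after rapamycin, and 23.3 and 25.9 in WT. It rose by 1.46 in the deletion (SE 0.13, adjusted p = 0.00013) and by 1.16 after rapamycin (SE 0.13, adjusted p = 0.00028). The second core subunit QCR2, the hinge subunit QCR6 and the joined QCR9 row rose by 0.94 to 1.11 in the deletion and by 0.70 to 1.07 after rapamycin, where the QCR6 call was lost without either WT library (adjusted p = 0.11 and 0.063). CYT1, which encodes cytochrome c1, had 71.6 and 109 scaled CPM in the deletion, 83.7 and 120.4 after rapamycin, and 65.7 and 43.9 in WT. Its wide spread left the deletion uncalled (log2 fold change 0.71, SE 0.27, adjusted p = 0.064), and its rise of 0.89 after rapamycin (SE 0.27, adjusted p = 0.029) was lost without WT replicate 2 or rapamycin replicate 2. QCR8 was called in neither comparison, with log2 fold changes of 0.51 in the deletion (adjusted p = 0.073) and 0.48 after rapamycin (adjusted p = 0.093).

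**Figure D3:**
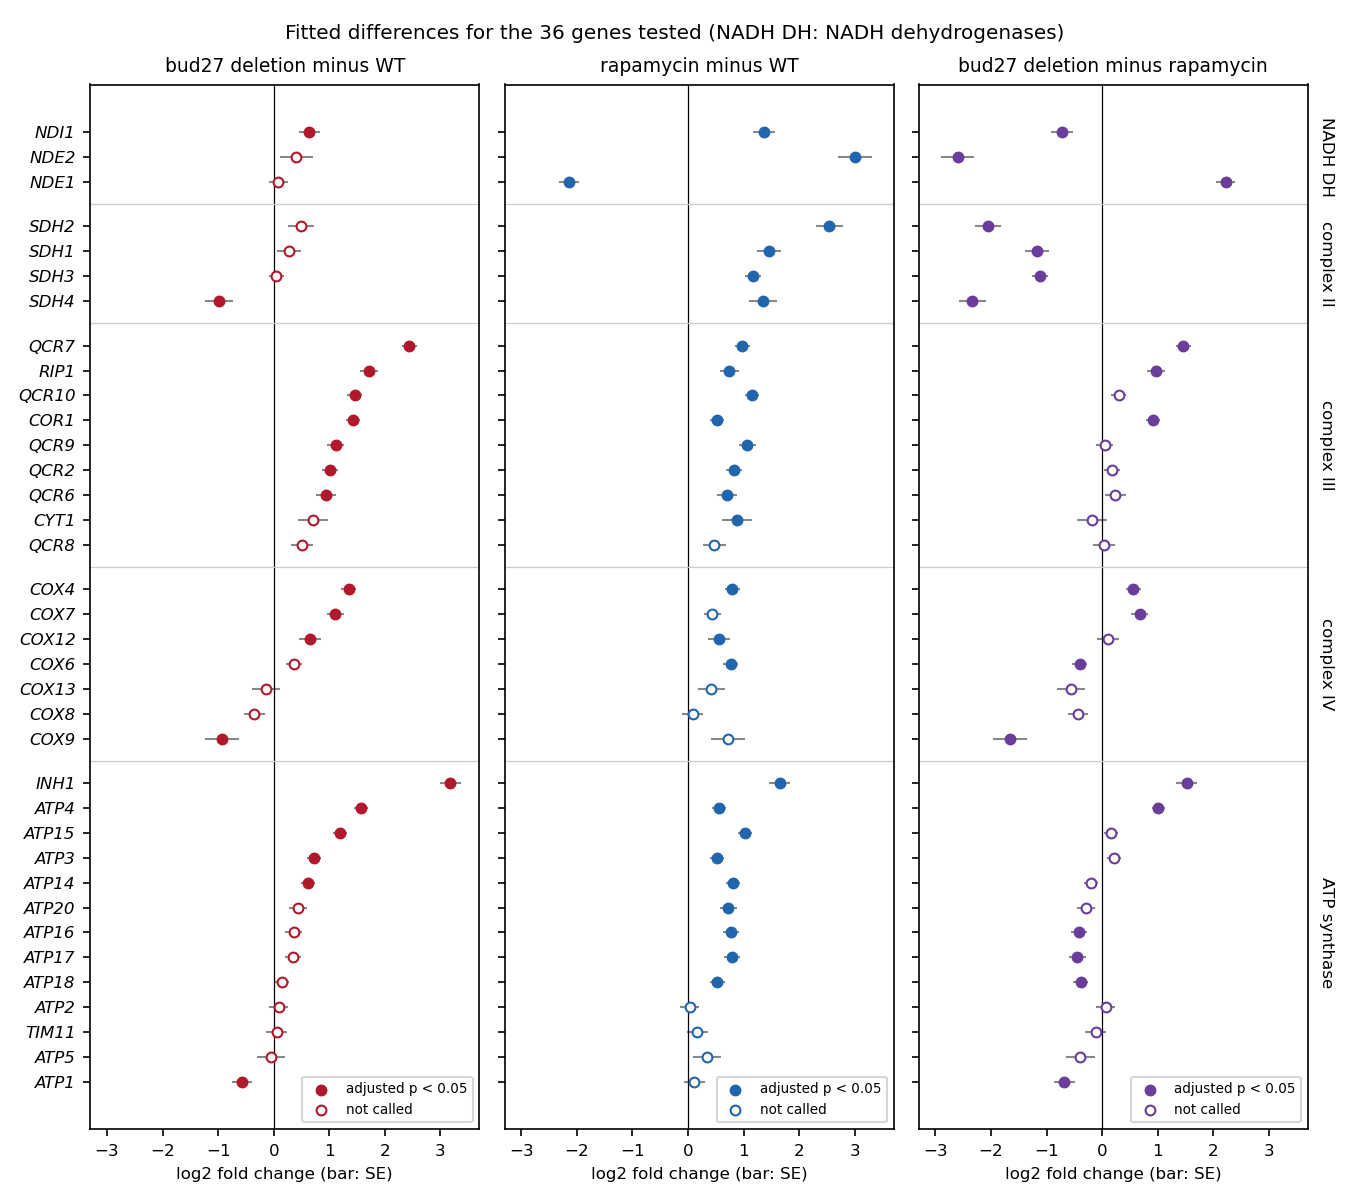
Log2 fold change with its SE for each of the 36 genes, for the deletion minus WT, rapamycin minus WT and the deletion minus rapamycin; filled points have a limma adjusted p below 0.05. Complex II lies to the right after rapamycin and to the left in the deletion minus rapamycin, and QCR7, RIP1, COR1, ATP4, INH1 and NDE1 lie to the right in the last panel.

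Within complex IV, cytochrome c oxidase, COX4, COX7 and COX12 were called higher in the deletion, COX9 lower, and 3 were not called. Over all rows 21.7% were called higher and 25.5% lower. The only fall, that of COX9, lost its call under 4 of the 15 alternatives. COX4, whose row is joined with YGL188C, had 128 and 149.6 scaled CPM in the deletion, 89.1 and 98.7 after rapamycin, and 54.1 and 53.1 in WT. Its groups did not overlap, and it rose by 1.35 in the deletion (SE 0.14, adjusted p = 0.00023) and by 0.80 after rapamycin (SE 0.14, adjusted p = 0.0021). COX7 had 66.6 and 76.5 in the deletion, 39.8 and 49.6 after rapamycin, and 31.3 and 33.9 in WT. It rose by 1.11 in the deletion (SE 0.16, adjusted p = 0.001), and its log2 fold change after rapamycin was 0.44 (adjusted p = 0.05, just above the threshold). COX4 and COX7 were higher in the deletion than after rapamycin by 0.56 and 0.67, calls lost without rapamycin replicate 1 (adjusted p = 0.084 and 0.076).

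COX9 (YDL067C), a small membrane subunit, had 104 and 226 scaled CPM in the deletion, 501 and 465 after rapamycin, and 296 and 292 in WT. The deletion libraries were below WT, and those with rapamycin above it. COX9 fell by 0.94 in the deletion (SE 0.31, adjusted p = 0.037), but not on the deposited scale (log2 fold change -0.50, adjusted p = 0.13), without a filter on low values (adjusted p = 0.052), or without either WT library (adjusted p = 0.16 each). Over all its alternatives that adjusted p ran from 0.00017 to 0.16. After rapamycin its log2 fold change was 0.71 (SE 0.31, adjusted p = 0.092), and the difference between the deletion and rapamycin was -1.65 (SE 0.31, adjusted p = 0.0026). COX8 and COX13, whose fitted signs also differed between the conditions, were called in no comparison. COX8 had 114 and 167 scaled CPM in the deletion, 192 and 180.5 after rapamycin, and 167 and 184 in WT. COX13 had 156 and 282 in the deletion, 297 and 324 after rapamycin, and 230 and 233 in WT, so that its deletion libraries lay on either side of WT.

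COX6 rose by 0.77 after rapamycin (SE 0.14, adjusted p = 0.0029), and had a log2 fold change of 0.36 in the deletion (adjusted p = 0.066). Its difference between the deletion and rapamycin, -0.41 (adjusted p = 0.039), was lost under 8 of the 15 alternatives. COX12 rose by 0.66 in the deletion (SE 0.20, adjusted p = 0.026) and by 0.56 after rapamycin (SE 0.20, adjusted p = 0.049). Both COX12 calls were lost without either WT library, and the rapamycin call under 4 more alternatives.

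ATP synthase had 5 genes higher and 1 lower in the deletion among the 13 tested, and 9 higher and none lower after rapamycin. Over all rows the shares called were 21.7% higher and 25.5% lower in the deletion, and 24.4% higher and 21.5% lower after rapamycin. The medians were 0.36 in the deletion and 0.56 after rapamycin. Its largest change was in INH1, whose small protein binds the F1 head and inhibits ATP hydrolysis when the membrane potential collapses. INH1 (YDL181W), on chromosome IV at 135179 to 135436 on the plus strand, had 13.6 and 16.9 scaled CPM in the deletion, 4.83 and 4.44 after rapamycin, and 0.824 and 0.753 in WT. The reads behind these levels were 49 and 87 in the deletion, 166 and 111 after rapamycin, and 17 and 11 in WT, and no groups overlapped. INH1 rose by 3.18 in the deletion (SE 0.19, adjusted p = 2.1e-05), the 22nd highest of all rows, and by 1.66 after rapamycin (SE 0.19, adjusted p = 0.00031). The deletion was higher than rapamycin by 1.52 (SE 0.19, adjusted p = 0.00036). Since INH1 was below 1 scaled CPM in WT, these sizes depend on the pseudocount: over the alternatives the log2 fold change ran from 1.80 to 4.27 in the deletion and from 0.74 to 2.54 after rapamycin, and all calls held.

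In the catalytic F1 head the subunits did not move alike. ATP15, the epsilon subunit gene, had 237 and 215 scaled CPM in the deletion, 209.8 and 193 after rapamycin, and 97.9 and 98.3 in WT, and rose by 1.20 (SE 0.13, adjusted p = 3e-04) and by 1.03 (SE 0.13, adjusted p = 0.00045). ATP3, the gamma subunit gene, rose by 0.73 in the deletion (SE 0.12) and by 0.52 after rapamycin (SE 0.12), where the call was lost without any 1 of the rapamycin or WT libraries (adjusted p from 0.055 to 0.085). ATP16, the delta subunit gene, rose by 0.78 after rapamycin (SE 0.15, adjusted p = 0.0036), with a log2 fold change of 0.36 in the deletion (adjusted p = 0.079). The beta subunit gene ATP2, in a row joined with YJR120W, had log2 fold changes of 0.09 in the deletion (adjusted p = 0.67) and 0.03 after rapamycin (adjusted p = 0.90).

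ATP1 (YBL099W), the alpha subunit gene, had 126 and 109.7 scaled CPM in the deletion, 158 and 228 after rapamycin, and 169 and 182 in WT. Both deletion libraries were the lowest, and the rapamycin libraries lay on either side of WT. ATP1 fell by 0.57 in the deletion (SE 0.19, adjusted p = 0.037), a call lost on the deposited scale (log2 fold change -0.14, adjusted p = 0.58), without a filter (adjusted p = 0.05), without deletion replicate 2 (0.099) and without either WT library (0.12 and 0.18). It was lower in the deletion than after rapamycin by -0.68 on the log2 scale (SE 0.19, adjusted p = 0.015), a call lost without rapamycin replicate 2 (0.16).

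Of the stator and membrane subunits, ATP4 (YPL078C), which encodes subunit b of the stator stalk, rose most in the deletion. It had 232 and 224 scaled CPM in the deletion, 111 and 115 after rapamycin, and 74.6 and 78.0 in WT. Its rise of 1.57 in the deletion (SE 0.12, adjusted p = 6.1e-05) was larger than the 0.56 after rapamycin (SE 0.12, adjusted p = 0.0063; 0.059 without rapamycin replicate 2), by 1.01 (SE 0.12, adjusted p = 0.00029). ATP14, in a row joined with YLR294C, rose in both, by 0.61 in the deletion (SE 0.13) and by 0.82 after rapamycin (SE 0.13). ATP17, ATP18 and ATP20 rose after rapamycin, by 0.79, 0.53 and 0.73, and were not called in the deletion at 0.35, 0.14 and 0.44. The ATP18 rise was lost without rapamycin replicate 1 or either WT library, and the ATP20 rise without WT replicate 1 (adjusted p = 0.054). ATP16, ATP17 and ATP18 were lower in the deletion than after rapamycin by -0.42, -0.45 and -0.39 on the log2 scale, calls lost under 9, 7 and 9 of the 15 alternatives. ATP5, the oligomycin sensitivity subunit gene, and TIM11, a subunit of the dimer contact, were called in no comparison. ATP5 had 129 and 238 scaled CPM in the deletion, 233 and 227 after rapamycin, and 193 and 171 in WT, so that the deletion range held all the other libraries.

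**Figure D4:**
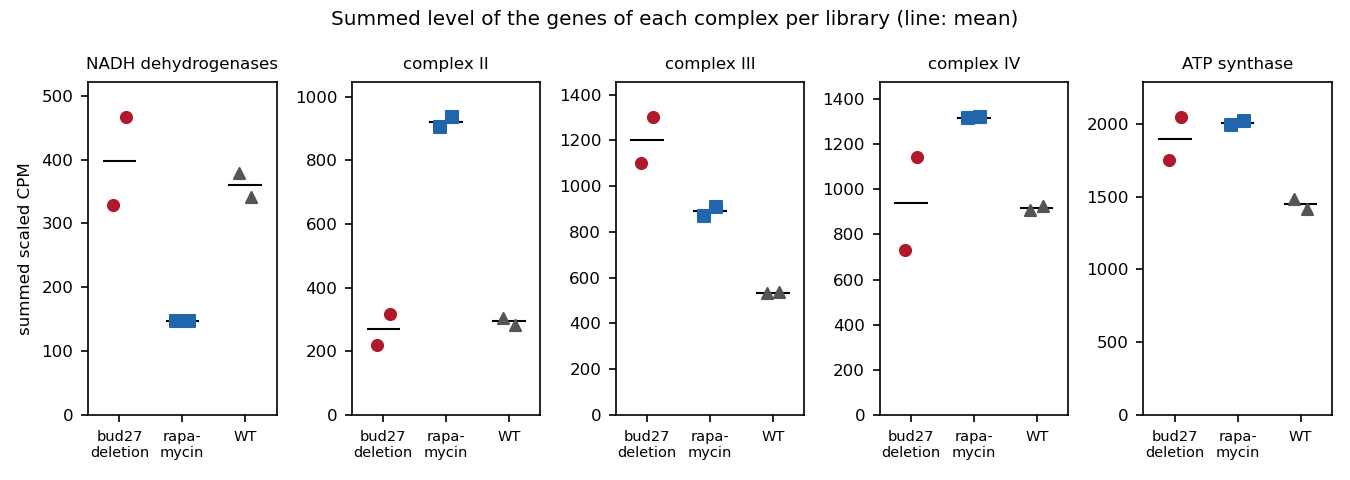
Scaled CPM summed over the genes of each complex, per library, in the bud27 deletion, WT with rapamycin and WT; the line is the mean of 2 libraries and every axis starts at 0. The complex II sum is 904 and 935 after rapamycin and the complex III sum 1102 and 1301 in the deletion, while the sum of the NADH dehydrogenases, mostly NDE1, is lowest after rapamycin.

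The sums over the genes of a complex show how far the groups overlapped. Complex II summed to 220.3 and 318 scaled CPM in the deletion, 904 and 935 after rapamycin, and 306 and 283 in WT, so that the deletion and WT overlapped. Complex III summed to 1102 and 1301 in the deletion, 870.2 and 909 after rapamycin, and 532 and 536 in WT, with no overlap. Complex IV summed to 732 and 1145 in the deletion, 1317 and 1319 after rapamycin, and 910.0 and 926 in WT. ATP synthase summed to 1751 and 2046 in the deletion, 1995 and 2018 after rapamycin, and 1481 and 1418 in WT. In both of these the deletion replicates enclosed another group.

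Genes that belong to the same machinery but not to the 37 were described from lists chosen by function, and their counts stand beside the same shares of all rows (21.7% higher and 25.5% lower in the deletion, 24.4% and 21.5% after rapamycin). Of the 4 oxygen-switched genes, 3 rose and none fell in the deletion, and 2 rose and 1 fell after rapamycin. CYC1, an iso-cytochrome c, had 327 and 423 scaled CPM in the deletion, 34.7 and 34.4 after rapamycin, and 96.7 and 100.2 in WT. COX5B, the low-oxygen form of subunit V, had 61.6 and 63.5 in the deletion, 331 and 296 after rapamycin, and 27.6 and 28.1 in WT. CYC1 rose by 1.91 in the deletion (SE 0.15) and fell by 1.48 after rapamycin (SE 0.15), while COX5B rose in both, by 1.14 (SE 0.13) and by 3.45 (SE 0.13). CYC7, the other iso-cytochrome c, rose by 2.04 in the deletion (SE 0.23) and by 2.18 after rapamycin (SE 0.23).

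Among 7 further subunits and paralogs, 2 rose and 2 fell in the deletion, and 6 rose and none fell after rapamycin. SHH4, a paralog of SDH4, had 11.7 and 14.8 scaled CPM in the deletion, 82.6 and 67.9 after rapamycin, and 13.2 and 15.7 in WT, a rise of 2.30 after rapamycin (SE 0.18, adjusted p = 5.7e-05). STF1, which encodes a protein related to the ATPase inhibitor Inh1, rose by 2.56 after rapamycin (SE 0.20, adjusted p = 6.2e-05) and by 1.02 in the deletion (SE 0.20, adjusted p = 0.0051). ATP19, a small ATP synthase subunit gene, rose by 0.69 in the deletion (SE 0.14, adjusted p = 0.005) and by 0.78 after rapamycin (SE 0.14).

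Assembly and translation factors of complexes II to IV and ATP synthase numbered 59, of which 58 were tested. In the deletion 14 rose and 6 fell, with a median of 0.21, and after rapamycin 16 rose and 1 fell, with a median of 0.23. The shares that rose were near those of all rows, 21.7% in the deletion and 24.4% after rapamycin, and are no result about these factors. The shares that fell were smaller than those of all rows, 25.5% in the deletion and 21.5% after rapamycin. NCA3, a gene named for its part in making mitochondrially encoded ATP synthase subunits, had 4.16 and 5.26 scaled CPM in the deletion, 126 and 200.4 after rapamycin, and 9.11 and 13.0 in WT. It fell by 1.07 in the deletion (SE 0.25, adjusted p = 0.011) and rose by 3.75 after rapamycin (SE 0.25, adjusted p = 3e-05). FMC1, needed to assemble the F1 head at high temperature, fell by 1.11 in the deletion (SE 0.25, adjusted p = 0.0082), and COX20, a chaperone of the Cox2 subunit, rose by 1.64 after rapamycin (SE 0.15, adjusted p = 0.00011).

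Of 14 regulators 13 were tested, and HAP1 had no gene row. In the deletion 5 were higher and 1 lower, and after rapamycin 5 were higher and 2 lower. Of all rows 21.7% were called higher and 25.5% lower in the deletion, and 24.4% and 21.5% after rapamycin. HAP4, the activating subunit of the CCAAT-binding complex, had 13.0 and 7.21 scaled CPM in the deletion, 7.48 and 7.92 after rapamycin, and 5.57 and 8.21 in WT, and was called in no comparison (adjusted p = 0.20, 0.67 and 0.39). HXK2, a hexokinase that takes part in glucose repression, had 396 and 462 scaled CPM in the deletion, 537 and 498 after rapamycin, and 1175 and 1294 in WT. It fell by 1.52 in the deletion (SE 0.15, adjusted p = 0.00024) and by 1.25 after rapamycin (SE 0.15, adjusted p = 0.00044). RTG3, a factor of the retrograde pathway from mitochondria to nucleus, rose by 1.25 (SE 0.14, adjusted p = 0.00037) and by 0.71 (SE 0.14, adjusted p = 0.0042).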

How the data were processed

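Libraries were made with the QuantSeq 3′ mRNA kit and run on a HiSeq sequencer, per the labels' protocols. FastQC, HISAT2, DESeq, DESeq2 and build R64 are listed without versions or roles, per the submitters' processing notes. Which counter, annotation, strand setting and rule for multiply mapped reads were used is not given in the sources used here. CPM values were deposited by the authors for 7247 rows; the 5475 gene rows were used, and 925 and 847 rows of unstable transcripts were left out. Dividing by the step that 1 read makes gave whole reads for 100% of values (within 0.01 reads). Floors of 3 reads cover counting error only.

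As the unit was CPM, the test was limma 3.58.1 in R 4.3.3, fitted with a mean trend on log2(TMM-scaled CPM + 1) over 3 groups of 2, with 3 residual degrees of freedom. TMM factors and the filter on low rows (minimum count 10) came from edgeR 4.0.16, and p-values were adjusted by Benjamini and Hochberg over 5279 rows. The scale understates changes of rare transcripts. The scripts were tested on simulated data first. Alternatives were the deposited scale, DESeq2 size factors, pseudocounts 0.5 and 5, no filter, edgeR and DESeq2 1.42.0 on the recovered reads, a replicate block, fits of 2 groups, and each library left out, where the lone sample is assumed to vary like the other groups.

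The genes, lists and motifs were chosen with earlier results of these data known. By rule, full values go to the called gene with the largest rise and fall of each complex per comparison, the NADH dehydrogenases, INH1, genes whose sign differs between the conditions, and up to 2 called genes per other list with a mean of at least 20 CPM; further genes were picked after their values were seen. Names and coordinates are those of RefSeq R64, which matched 5458 of 5780 feature names. A gene that this rule names in another list is not reported here.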

Additional observations from a re-analysis of the deposited data

How the results depend on the processing

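Of the 19 calls in the deletion against WT, 14 held under all 15 alternatives, all of them rises; the other 5 were COX9, COX12, SDH4, ATP1 and NDI1. Of the 27 calls after rapamycin 18 held, and of the 20 between the deletion and rapamycin 12. How many calls over all rows held is not given here, so these counts are description only. On the deposited scale 29 genes of the set were higher and 0 lower in the deletion, with a median of 0.93, and the medians became 1.35 after rapamycin and -0.32 between the deletion and rapamycin, with the last count at 8 higher and 16 lower. Over all rows that scale turned 1147 higher and 1345 lower calls into 2245 and 704 in the deletion, 1286 and 1135 into 2886 and 432 after rapamycin, and 1354 and 1554 into 938 and 1829 in the direct comparison. Relative to all rows, the median of the set was 0.52 (deposited scale 0.56) in the deletion and 0.71 (0.75) after rapamycin. With no filter on low values 17 genes were higher and 1 lower in the deletion, beside 1210 and 1266 of 5452 rows. Leaving out each library gave 1434 to 3031 called rows, 14 to 25 higher and 0 to 5 lower genes and medians of 0.24 to 0.76 in the deletion; 1588 to 3058 rows, 19 to 31 higher genes and medians of 0.73 to 0.79 after rapamycin; and 2044 to 3261 rows, 6 to 12 higher and 6 to 17 lower genes and medians of -0.32 to 0.062 between the conditions. In the last comparison the median turned to 0.062 without deletion replicate 1, and that of ATP synthase ran from -0.35 to 0.066 without deletion replicate 2 or 1. Without deletion replicate 1 ATP5 was called higher in the deletion than WT (0.43, adjusted p = 0.027; -0.50 without deletion replicate 2), and without deletion replicate 2 QCR8 was called lower in the deletion than after rapamycin (-0.30, adjusted p = 0.049; 0.38 without deletion replicate 1). Using only genes with a row of their own, added after seeing the data, gave 13 higher and 3 lower in the deletion and 22 and 1 after rapamycin. edgeR called 17 higher and 3 lower in the deletion and 27 and 1 after rapamycin, and DESeq2 19 and 3, and 26 and 1. Over all 5279 rows edgeR called 1152 higher and 1304 lower in the deletion, and 1412 and 1245 after rapamycin. The DESeq2 counts over all rows were 1076 and 1285, and 1244 and 1257. With a replicate block the counts were 16 and 3 in the deletion (all rows 1093 and 1284) and 27 and 1 after rapamycin (all rows 1237 and 1083). Between the conditions they were 8 higher and 8 lower (all rows 1312 and 1496). Same-numbered libraries share only a number: their deviations correlated at 0.036, -0.053 and -0.097 across 5279 rows. The cause of these changes was not tested. Depth limits the rarest transcripts, such as NDE2 with 7 and 16 reads in the deletion libraries.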

Other observations

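Genes that feed the chain are counted here against the shares of all rows, of which 21.7% were called higher and 25.5% lower in the deletion, and 24.4% and 21.5% after rapamycin. Of 16 genes of the tricarboxylic acid cycle and its isozymes, 7 rose and 1 fell in the deletion, and 13 rose and 1 fell after rapamycin. CIT2, the peroxisomal citrate synthase, had 37.7 and 36.03 scaled CPM in the deletion, 783 and 925 after rapamycin, and 41.3 and 69.7 in WT, and rose by 3.96 after rapamycin (SE 0.23, adjusted p = 1.4e-05). The mitochondrial citrate synthase CIT1 rose by 2.52 after rapamycin (SE 0.15, adjusted p = 1.9e-05), and IDP1 by 2.21 in the deletion (SE 0.14, adjusted p = 2.6e-05).

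The counts of the next lists, read beside the same shares, are description only: 21.7% of all rows higher and 25.5% lower in the deletion, 24.4% and 21.5% after rapamycin. Of 11 ubiquinone synthesis genes, 4 rose and 3 fell in the deletion, led by COQ11 at 1.23 (SE 0.16), and 4 rose and 1 fell after rapamycin, led by COQ2 at -1.14 (SE 0.14). Of 9 heme synthesis and attachment genes tested, 3 fell and none rose in the deletion, and 3 rose and 2 fell after rapamycin. HEM13, an oxygen-dependent heme enzyme gene, had 29.4 and 29.6 scaled CPM in the deletion, 150.5 and 143 after rapamycin, and 51.1 and 51.8 in WT, a fall of -0.78 in the deletion (SE 0.12) and a rise of 1.49 after rapamycin (SE 0.12). A further list of 10 genes mixed redox enzymes and carriers, not all of which feed the chain. Of these, 4 rose and 2 fell in the deletion, and 5 rose and 2 fell after rapamycin. CIR1 rose by 1.30 and CIR2 fell by 1.11 in the deletion (SE 0.24 and 0.25), and URA1, a dehydrogenase of pyrimidine synthesis, fell by 1.52 after rapamycin (SE 0.19). Of 8 carriers and porins, 1 rose and 3 fell in the deletion, and 3 rose and 1 fell after rapamycin. AAC3, the low-oxygen ADP/ATP carrier, had 1.11 and 2.34 in the deletion, 39.7 and 36.96 after rapamycin, and 35.3 and 30.5 in WT. It fell by 3.67 in the deletion (SE 0.23, adjusted p = 2.6e-05). PET9, another ADP/ATP carrier, had log2 fold changes of -0.81 in the deletion (SE 0.14, adjusted p = 0.0024) and -0.58 after rapamycin (SE 0.14, adjusted p = 0.01). POR1, the main outer membrane porin, in a row joined with a tRNA gene, had 708 and 1393 in the deletion, 7651 and 6941 after rapamycin, and 1864 and 1361 in WT, and rose by 2.19 after rapamycin (SE 0.32, adjusted p = 0.001). The genes of the mitochondrial genome that were looked up, among them COX1, COB and ATP6, had no row among the gene rows.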
